A study of Mus musculus with 2 samples.

Results

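Cycling CD8 T cells are the CD8 T cells of the tumours that carried transcripts of dividing cells, and 388 of them were found among 9059 kept cells of a single-cell RNA sequencing experiment. They made up 116 of 5001 kept cells in the Ifnar1-SA library and 272 of 4058 in the WT library. Kept barcodes had 1000 or more UMIs (unique molecular identifiers, which count captured transcripts), 500 or more detected genes and no more than 10% of their UMIs from mitochondrial genes. A member had at least 3 UMIs of Cd3d, Cd3e, Cd3g and Trac together, at least 2 of Cd8a and Cd8b1, none of Cd4 or Foxp3, and fewer than 10 of the macrophage genes C1qa, C1qb, C1qc, Lyz2 and Csf1r. It also had at least 3 UMIs of Mki67, Top2a, Ube2c and Birc5 together, and CD8 T cells with fewer of these UMIs are called non-cycling. The rule reads measured values, so the levels of its own genes, and the comparison of cycling with non-cycling cells, are descriptions.

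Mice received MC38 cells, a mouse colon adenocarcinoma line that grows as a tumour in mice, and the tumours' immune cells were taken on day 14 for droplet-based (10x) sequencing. One library came from Ifnar1-SA mice and the other from wild-type (WT) mice, and the labels state that neither was treated. Ifnar1 encodes a chain of the receptor for type I interferons. What SA stands for, the strain, age and number of animals in a library, and any sort before loading are unstated in the sources used here, and the labels call the cells both tumour-infiltrating immune cells and CD8 T cells. With 1 library per genotype there is no spread between animals, so no test between genotypes was made. Every interval below is a 95% interval for counting error only, and every difference compares these libraries.

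The Ifnar1-SA library held 62732220 UMIs and the WT library 55497066. The members held 1414802 UMIs in Ifnar1-SA, with a median of 9720 UMIs and 2609 genes per cell, and 3796769 in WT, with medians of 12248.5 UMIs and 2940 genes. The libraries shared 7 barcodes among kept cells, and none of these was a member in both. The cells of the Ifnar1-SA library did not all carry the same sex-linked transcripts. Among its members, 72 had Xist and no Y-linked UMI, 30 had Y-linked UMIs and no Xist, 1 had both and 13 had neither, against 269, 1, 0 and 2 in WT. List medians were also taken for the Xist-only and for the Y-linked-only Ifnar1-SA members, each over all WT members. A few members were far deeper than the others: 2 in Ifnar1-SA had 103072 and 73796 UMIs, where the next highest had 31099, and 1 in WT had 86286, where the next had 45690. The Ifnar1-SA pair held 12.5% of that library's member UMIs, all 229 of its Col3a1 UMIs and 63 of its 66 Rhox5 UMIs, and the WT cell held 2.27% of UMIs, 43 of 52 Col3a1 and all 46 Rhox5 UMIs. Col3a1 is a fibroblast collagen and Rhox5 a gene of some tumour lines.

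When a CD8 T cell meets its antigen it enters rapid rounds of division before or while it acquires cytotoxic function. In S phase the cell copies its DNA with the MCM helicase, PCNA and the enzymes that make deoxynucleotides, and packs it with newly made histones. In G2 and mitosis, cyclin B with the kinase Cdk1, the condensins, the kinesins and the anaphase-promoting complex separate the chromosomes. In tumours, dividing CD8 T cells are found next to non-dividing cells that carry inhibitory receptors, and type I interferon acts on T cells through the receptor made of Ifnar1 and Ifnar2.

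The label of CD8 T cells was checked against markers of other cells. Cd8a stood at 540.0 CPM (UMIs of a gene per 1000000 UMIs of the pooled cells) in Ifnar1-SA members and 545.2 CPM in WT members, and Cd8b1 at 548 and 563 CPM. When each cell was thinned at random to 2000 UMIs, 72.2% of 115 Ifnar1-SA members and 66.2% of 272 WT members had a Cd8a UMI. In a macrophage gate the shares were 0.45% and 0.32% of cells. That gate took kept cells with at least 20 UMIs of the 5 macrophage genes and none of Cd3d, Cd3e, Cd3g and Trac. Its median depths before thinning were 8810 and 10655 UMIs. The rule asks members for Cd8a or Cd8b1, and this gate leaves out cells with those T cell transcripts. Shares of T cell genes set against it are thus descriptions. All 11 macrophage and monocyte markers were detected in members, at a summed 203 CPM in Ifnar1-SA and 190 CPM in WT, where the macrophage gate had 49212 and 53827 CPM. Of 6 B and plasma cell markers 5 were at 0 in Ifnar1-SA and 3 in WT, with a sum of 0.71 and 0.79 CPM, and all 5 red cell markers were at 0 in both. Of 6 markers of regulatory and conventional CD4 T cells, Cd4 and Foxp3 were at 0 by the rule, and the list summed to 503 CPM in Ifnar1-SA and 608 CPM in WT members, with a UMI in 99 of 116 and 251 of 272 members, beside 452 and 525 CPM in non-cycling CD8 T cells. Nearly all of it was Ctla4, Ikzf2 and Il2ra, which activated CD8 T cells also express. The 8 dendritic cell markers summed to 32.5 CPM in 4 Ifnar1-SA members and 5.0 CPM in 11 WT members, mostly Fscn1, and to 18.6 and 2.96 CPM without the cells above 50000 UMIs. Among 6 NK cell markers, Ncr1 and Klra8 were at 0 in both libraries, and the list summed to 102 and 103 CPM, most of it Gzma. Among 6 gamma-delta T cell markers, Trdc, Trdv4 and Cd163l1 were at 0 in both, while Tcrg-C2 had 7 UMIs in 4 Ifnar1-SA members and 92 UMIs in 33 WT members. The mast cell genes Cpa3, Cma1 and Mcpt4 were at 0 in Ifnar1-SA members and had 562 UMIs in 3 WT members, with 303 and 258 of them in 2 cells. The part of these cells in the differences below was not tested, except where a value without the deepest cells is given.

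A smaller share of the CD8 T cells met the cycling rule in the Ifnar1-SA library than in the WT library. Cycling cells were 116 of 668 gated CD8 T cells in Ifnar1-SA, or 17.4% (interval 14.6 to 20.5), and 272 of 980 in WT, or 27.8% (24.97 to 30.7). As a share of all kept cells they were 2.32% (1.92 to 2.78) in Ifnar1-SA and 6.70% (5.95 to 7.52) in WT. The CD8 gate itself was 13.4% of kept cells in Ifnar1-SA and 24.1% in WT. The minimum of 3 UMIs is met more easily by deep cells, so the share was also taken at equal depth. Averaged over all possible draws of 2000 UMIs, 22.7% of 606 Ifnar1-SA cells and 34.3% of 897 WT cells had at least 1 UMI of the 4 cycle genes, and 9.60% and 16.9% had at least 3. In the macrophage gate the shares with at least 1 such UMI were 15.8% in Ifnar1-SA and 15.6% in WT.

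Depth classes gave a finer view of the same share. In cells of 1000 to 3000 UMIs 3.01% were cycling in Ifnar1-SA and 2.19% in WT, and in cells of 3000 to 6000 UMIs it was 10.6% in each. In cells of 6000 to 12000 UMIs the share was 22.8% (16.97 to 29.6) in Ifnar1-SA and 29.9% (24.8 to 35.3) in WT. In cells of 12000 UMIs and more it was 65.6% (52.7 to 77.1) and 80.3% (73.7 to 85.9). The lower Ifnar1-SA share was thus seen in the 2 deeper classes, where the intervals of the libraries overlapped, and not in the 2 shallower ones. Within the Ifnar1-SA gate, 72 of 439 Xist-only cells were cycling (16.4%) and 30 of 132 Y-linked-only cells (22.7%, 15.9 to 30.8), and the interval of the second group included the 28.3% of Xist-only WT cells. Regulatory T cells, gated with Foxp3, had the same order of libraries, with 77 of 446 cycling in Ifnar1-SA (17.3%) and 104 of 313 in WT (33.2%).

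**Figure D1:**
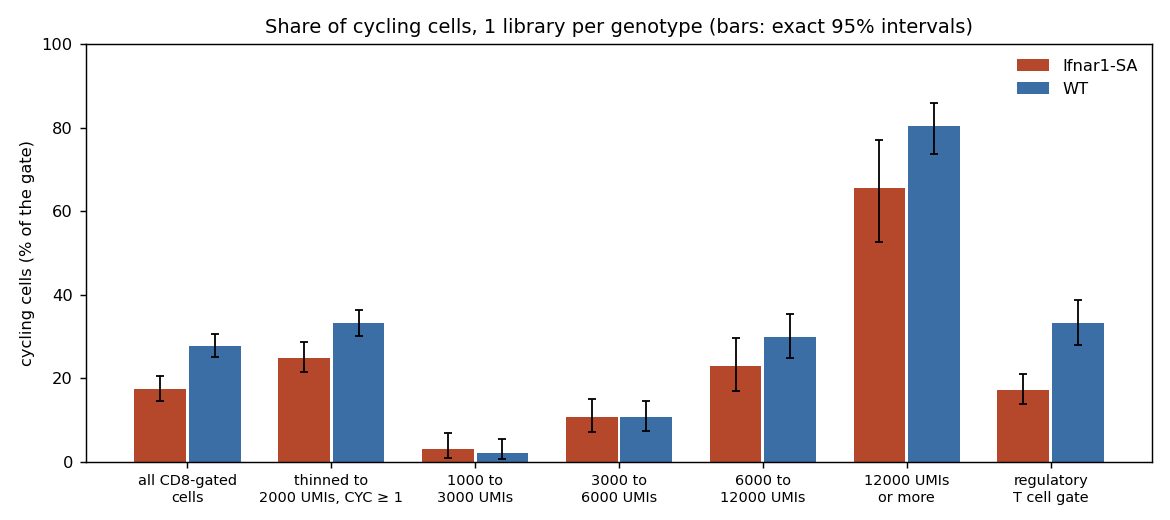
Share of gated cells that met the cycling rule, in percent (y axis), for all CD8-gated cells, for 1 draw of 2000 UMIs per cell with at least 1 UMI of the 4 cycle genes (CYC), for 4 depth classes and for the regulatory T cell gate; coloured bars are the libraries and thin lines exact 95% binomial intervals. The Ifnar1-SA bars lie below the WT bars at 6000 to 12000 UMIs (22.8% and 29.9%) and at 12000 UMIs and more (65.6% and 80.3%), and close to them in shallower cells (10.6% in both at 3000 to 6000 UMIs).

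Members near the limit of the rule carried fewer mitosis transcripts than members far past it, while their S phase transcripts were close to those of other members in Ifnar1-SA and lower in WT. In Ifnar1-SA, 13 members had exactly 3 UMIs of the 4 cycle genes, with 3398 CPM summed over the S phase list and 2672 CPM over the mitosis list, and the 22 cells with 2 UMIs just outside it had 2213 and 2440 CPM. In WT, 22 members had 3 UMIs, with 2927 and 2922 CPM, and 45 cells had 2 UMIs, with 2330 and 1880 CPM. Most members were well past the limit, with a median of 11 such UMIs in Ifnar1-SA and 18 in WT, and 66 of 116 and 191 of 272 members had at least 10. The members with at least 10 had 3204 CPM of the S phase list and 8649 CPM of the mitosis list in Ifnar1-SA, and 3929 and 9612 CPM in WT. Non-cycling cells with none of these UMIs had 980.0 and 1045 CPM in Ifnar1-SA, and 1077 and 968 CPM in WT. Non-cycling cells next to the limit thus held more cycle transcripts than those far from it.

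The 4 genes of the rule differ in when a cell uses them. Top2a, the topoisomerase that untangles copied DNA, stood at 468 CPM in Ifnar1-SA members and 624 CPM in WT members, a log2 ratio of -0.42 (-0.54 to -0.29), and at -0.28 without the deepest cells. Mki67, which coats mitotic chromosomes, stood at 159 and 191 CPM (log2 ratio -0.26). Ube2c, which works with the anaphase-promoting complex, stood at 424 and 459 CPM (-0.11), and Birc5, of the chromosomal passenger complex, at 334 and 362 CPM (-0.12). All 4 were lower in the Ifnar1-SA members, which were chosen on the sum of these UMIs, so the levels describe the selection.

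The position of a member in the cycle was taken as the mitosis list's UMIs over those of the mitosis and S phase lists together, without the 4 rule genes. The median position was 0.709 in Ifnar1-SA members and 0.687 in WT members, on a scale from 0 (S phase genes alone) to 1 (mitosis genes alone), with medians of 113 and 151 UMIs behind it. Mitosis-leaning members, past 2/3 of that scale, were 62 of 116 (53.4%) in Ifnar1-SA and 143 of 272 (52.6%) in WT. Middle members were 49 (42.2%) and 122 (44.9%), and S-leaning members, under 1/3, were 5 (4.31%) and 7 (2.57%). Near a cut between classes lay 21 Ifnar1-SA and 53 WT members, and these classes are ranges of 1 score.

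Ccne1, the cyclin of the entry into S phase, which the score does not use, stood at 49.4 CPM in middle and 15.8 CPM in mitosis-leaning Ifnar1-SA members, and at 41.7 and 14.7 CPM in WT members. Among genes that the score does use, Cdc20, the activator of the anaphase-promoting complex, stood at 19.8 CPM in middle and 134 CPM in mitosis-leaning members of Ifnar1-SA, and at 23.6 and 154 CPM in WT. Pcna, the sliding clamp of DNA polymerase, stood at 405 and 178 CPM in Ifnar1-SA and at 526 and 194 CPM in WT. Top2a was lower in Ifnar1-SA mainly in middle members, at 305 CPM against 553 CPM in WT, and stood at 674 and 704 CPM in mitosis-leaning ones. The same held for Mki67, at 98.9 CPM in Ifnar1-SA and 156 CPM in WT in middle members, and at 238 and 229 CPM in mitosis-leaning ones, and for Cdk1, at 100.3 and 171 CPM against 260.4 and 314 CPM. The deepest cells lay in the middle range and held 24.98% of its UMIs in Ifnar1-SA and 4.73% in WT. Without them, a choice made after seeing the data, middle members had 382 and 576 CPM of Top2a, 122 and 163 CPM of Mki67, and 115 and 178 CPM of Cdk1. The difference between the ranges was not tested.

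**Figure D2:**
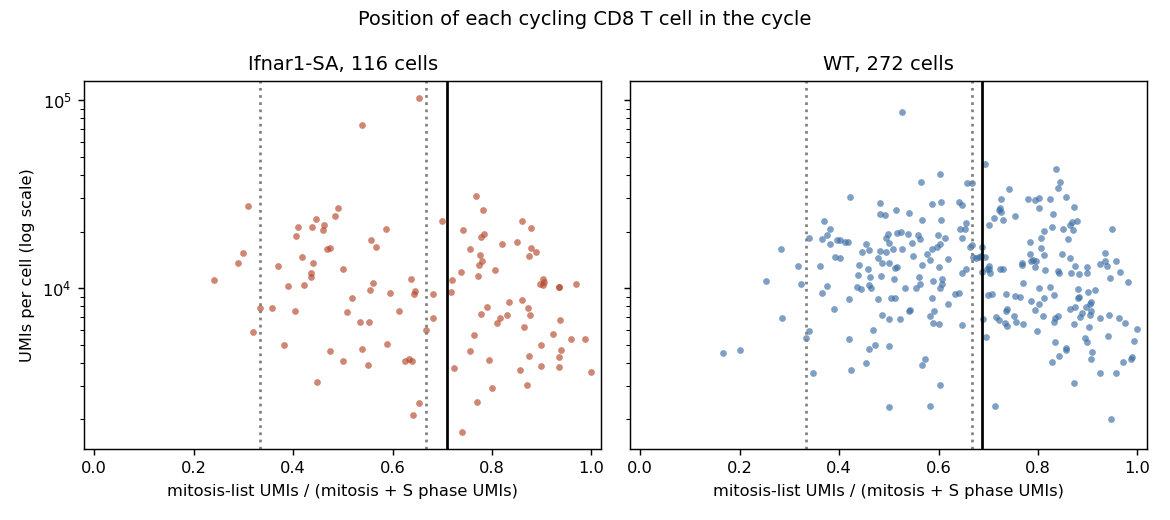
Position of members in the cell cycle (x axis, mitosis list UMIs over mitosis and S phase list UMIs, without the rule genes) against UMIs per cell (y axis, log scale), 1 panel per library and 1 point per cell; dotted lines are the limits at 1/3 and 2/3 and solid lines the medians, 0.709 in Ifnar1-SA and 0.687 in WT. The deepest cells, above 50000 UMIs, lie in the middle range in both libraries, and 5 and 7 cells lie under 1/3.

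Cell cycle genes as a group stood slightly lower in the Ifnar1-SA members. A gene was measured when its mean over both libraries was at least 20 CPM, and a ratio past 1.5-fold is called higher or lower as a size, with no test. Of 5097 measured genes, 4.28% were past 1.5-fold higher and 2.41% past 1.5-fold lower in Ifnar1-SA members, and the median log2 ratio of all of them was 0.03. Of 31 measured genes of 34 on the S phase list none was past 1.5-fold, 6 were higher by any amount in Ifnar1-SA, where 54.6% of all measured genes were, and the median was -0.18. Dut, which keeps uracil out of DNA, stood at 597 CPM in Ifnar1-SA and 728 CPM in WT (-0.29, -0.40 to -0.17). Rrm2, the regulated subunit of ribonucleotide reductase, stood at 186 and 221 CPM (-0.25, -0.45 to -0.05), and Mcm7, of the replicative helicase, at 116 and 145 CPM (-0.32, -0.58 to -0.07). Uhrf1, which carries DNA methylation over to the new strand, was among the 6, at 84.8 and 71.6 CPM (0.24, -0.08 to 0.56).

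On the mitosis list, 51 of 53 genes were measured, 11 were higher in Ifnar1-SA members, Ttk and Ncaph were past 1.5-fold lower, none was past 1.5-fold higher, and the median was -0.17. Hmgb2, a chromatin protein abundant in dividing cells, stood at 2589.8 CPM in Ifnar1-SA and 3119 CPM in WT (-0.27, -0.32 to -0.21). Cdk1, the mitotic kinase, stood at 168 and 240.5 CPM (-0.52, -0.73 to -0.31), and at 0.033 in cells of 6000 to 12000 UMIs. Its partner Ccnb2 stood at 165 and 168 CPM (-0.03, -0.25 to 0.19). Smc4, a condensin subunit, stood at 213 and 278 CPM (-0.39, -0.58 to -0.20), and Kif11, the kinesin that parts the spindle poles, at 93.3 and 130.1 CPM (-0.48, -0.77 to -0.20). Cks2, which binds the cyclin-dependent kinases, was among the exceptions, at 305 and 276 CPM (0.14, -0.02 to 0.31). The direction of both lists rests on the depth and mix of the cells: without the cells above 50000 UMIs the medians were -0.12 for S phase and -0.085 for mitosis, with each cell weighted equally the mitosis median was 0.049, and the S phase median was 0.16 for Y-linked-only Ifnar1-SA members against all WT members.

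The regulators of the cycle had a median of -0.02 over 31 measured genes of 38, and of -0.05 for Xist-only and 0.22 for Y-linked-only Ifnar1-SA members. Past 1.5-fold higher in Ifnar1-SA were Myc, the growth regulator, at 40.3 CPM against 18.7 CPM in WT (1.11, 0.58 to 1.63), Myb at 50.9 and 25.8 CPM (0.98), E2f7 and E2f2. Past 1.5-fold lower were Ccna2, the cyclin of S and G2, at 112 and 168 CPM (-0.59, -0.85 to -0.34), Cdk6, which starts the G1 programme, at 148 and 223 CPM (-0.59, -0.82 to -0.37), and Rbl1. The inhibitors Cdkn1a and Cdkn1b were at equal levels within counting error, 70.0 and 71.4 CPM for Cdkn1a (-0.03, -0.38 to 0.31) and 120.2 and 119.8 CPM for Cdkn1b (0.00, -0.26 to 0.26). The histone list had 11 measured genes of 32 and a median of 0.12, with Hist1h2bc and Hist1h1c past 1.5-fold higher and Hist1h2ae, Hist1h2ap and Hist1h3c past 1.5-fold lower. Histone genes of a class are near-identical and most of their mRNAs lack a poly(A) tail, so the counting may split or miss them and single genes are uncertain.

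Promoters of these genes share short letter patterns, some common to both lists and some mostly on 1 of them. The stretches below run from 250 bases before to 50 bases after the RefSeq start, in build GRCm38.p6, and were chosen for the mitotic pair Cdk1 and Ccnb2 and for Mcm5, of the S phase helicase. Capitals mark the cell cycle homology region (CHR), which is TTTGAA, the CCAAT box and a pair of E2F-like motifs, TTCCCGC as the first form and TTGGCGC as the second form, each searched on both strands of each stretch. The CCAAT box on the other strand reads ATTGG, and the second E2F-like form reads GCGCCAA there. Cdk1 (chr10:69352863-69353162, minus strand) holds the CHR, the CCAAT box and the second E2F-like form. Ccnb2 (chr9:70421505-70421804, minus strand) holds the CHR and the CCAAT box, and Mcm5 (chr8:75109259-75109558, plus strand) the second E2F-like form and the CCAAT box.
Cdk1: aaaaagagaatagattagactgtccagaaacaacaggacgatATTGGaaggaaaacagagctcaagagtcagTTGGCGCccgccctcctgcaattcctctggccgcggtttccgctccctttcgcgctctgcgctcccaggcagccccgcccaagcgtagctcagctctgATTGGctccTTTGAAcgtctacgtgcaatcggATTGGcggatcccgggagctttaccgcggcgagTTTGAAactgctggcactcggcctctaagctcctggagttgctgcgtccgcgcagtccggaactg
Ccnb2: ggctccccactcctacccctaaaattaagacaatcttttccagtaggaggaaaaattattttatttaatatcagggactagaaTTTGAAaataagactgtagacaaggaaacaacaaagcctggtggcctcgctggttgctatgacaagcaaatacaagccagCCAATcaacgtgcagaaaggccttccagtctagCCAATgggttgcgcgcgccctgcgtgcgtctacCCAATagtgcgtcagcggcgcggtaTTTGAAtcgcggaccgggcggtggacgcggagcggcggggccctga
Mcm5: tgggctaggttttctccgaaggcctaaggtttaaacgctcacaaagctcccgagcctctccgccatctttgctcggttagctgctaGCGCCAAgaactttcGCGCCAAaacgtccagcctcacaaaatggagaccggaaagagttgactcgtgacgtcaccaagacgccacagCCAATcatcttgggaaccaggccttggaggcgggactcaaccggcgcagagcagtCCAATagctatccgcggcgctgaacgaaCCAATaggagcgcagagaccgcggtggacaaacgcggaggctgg
TTTGAA was found in 34 of 48 promoters of 46 matched mitosis genes (70.8%), in 3 of 34 promoters of 29 matched S phase genes (8.82%), and in 17.9% of all 32851 promoters of 27025 genes. CCAAT was found in 75% of mitosis promoters, 64.7% of S phase promoters and 37.4% of all, and TTTGAA with CCAAT was found in 60.4% of mitosis promoters, 5.88% of S phase promoters and 6.95% of all. The E2F-like TTCCCGC was found in 41.2% of S phase, 6.25% of mitosis and 4.60% of all promoters, and TTGGCGC in 20.6%, 12.5% and 2.45%. Among 5192 promoters of genes measured in members, TTCCCGC was found in 9.21%, TTGGCGC in 5.51%, TTTGAA in 12.9% and CCAAT in 37.8%. The TTCCCGC share of mitosis promoters was thus under that of measured genes. Overlaps between different motifs were not removed. A match describes these letters and does not show that a factor binds there.

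Set beside non-cycling CD8 T cells of the same library, members were higher in the cell cycle lists and, with all cells, in the growth, respiration and glycolysis lists. With all cells they were lower in the T cell identity and type I interferon lists. The growth, respiration, glycolysis, identity and interferon lists were all closer to the median of all genes in cells of like depth. The rule made this contrast, so the counts are a description, given within each library. Of 5022 genes with a mean of at least 20 CPM, 16.4% in Ifnar1-SA and 14.5% in WT were past 1.5-fold higher in members, and 8.86% and 6.95% past 1.5-fold lower, while 56.8% were higher by any amount in each library. All-gene medians were 0.08 and 0.07. The mitosis list had medians of 3.56 in Ifnar1-SA and 3.97 in WT, with 40 of 41 genes past 1.5-fold higher in each library. The S phase list had medians of 1.71 and 1.52, with 27 and 26 of 27 genes past it, and the histone list 2.65 and 2.81.

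Outside the cell cycle lists, the 10 genes with the largest bounds in both libraries were Shcbp1, Esco2, Cep55, Neil3, Aspm, Fbxo5, Pclaf, Cks1b, Depdc1a and Cit, and most of them are known to act in division. Pclaf, a PCNA-binding protein, stood at 687 CPM in Ifnar1-SA members and 48.3 CPM in non-cycling cells, and at 818 and 32.4 CPM in WT (log2 ratios 3.83 and 4.66). Cks1b, a partner of the cyclin-dependent kinases, stood at 255 and 19.3 CPM in Ifnar1-SA and 264 and 21.9 CPM in WT. Esco2, which fastens the sister chromatids together, stood at 69.3 and 1.75 CPM in Ifnar1-SA and 60.6 and 0.26 CPM in WT. Fbxo5, an inhibitor of the anaphase-promoting complex, stood at 72.1 and 2.45 CPM in Ifnar1-SA and 100.6 and 3.06 CPM in WT. The growth list of nucleotide, polyamine and amino acid enzymes had medians of 0.61 in Ifnar1-SA and 0.68 in WT, with 10 and 11 of 19 genes past 1.5-fold higher and none past it lower. Phgdh, the first enzyme of serine synthesis, had log2 ratios of 1.58 and 1.14, and Mthfd2, of mitochondrial folate metabolism, 1.04 and 1.07. Respiration had medians of 0.43 and 0.51 and glycolysis 0.40 and 0.46, with Ldha, lactate dehydrogenase, at 0.61 and 0.83.

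In both libraries together, 10.4% of genes were past 1.5-fold higher and 3.94% past 1.5-fold lower, and the 10 lowest by their bounds were Slfn5, Ccl5, H2-Aa, Hcst, Gzma, Ypel3, Ifit3, Ifi208, Ifit1 and H2-Eb1. Ccl5, a chemokine of effector and memory T cells, stood at 855 CPM in Ifnar1-SA members and 3133 CPM in non-cycling cells, and at 767 and 3653 CPM in WT (-1.87 and -2.25). Hcst, the adaptor of the receptor Klrk1, stood at 223 and 609 CPM in Ifnar1-SA and 257 and 658 CPM in WT. Ifit3, an interferon-inducible gene, stood at 19.8 and 74.96 CPM in Ifnar1-SA and 22.1 and 61.5 CPM in WT. Bcl2, the survival factor, had log2 ratios of -1.001 and -1.05. Cd8a was at -0.59 and -0.47, and the T cell identity list had medians of -0.38 and -0.36. The type I interferon list had medians of -0.71 and -0.58, with 29 and 24 of 48 genes past 1.5-fold lower, and -0.70 and -0.58 after subtraction of free RNA estimated from empty droplets. H2-Aa and H2-Eb1 encode MHC class II chains of antigen-presenting cells. The same free RNA estimate came to 8.53 of 16.96 CPM of H2-Aa in Ifnar1-SA members and 10.1 of 11.1 CPM in WT members. For H2-Eb1 it came to 9.46 of 16.96 CPM and 12.3 of 18.2 CPM. In non-cycling cells it came to 19.2 of 123 CPM and 20.3 of 39.3 CPM for H2-Aa. There, it came to 21.3 of 157 CPM and 24.6 of 49.2 CPM for H2-Eb1. The macrophage gene C1qb, which the rule caps, stood at -1.29 in Ifnar1-SA and -1.15 in WT. The part of other cells in these values was not tested.

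Members were deeper than non-cycling cells, whose median UMIs were 4492 in Ifnar1-SA and 4781.5 in WT, so the contrast was repeated in cells of 6000 to 12000 UMIs. There, 42 members faced 142 non-cycling cells in Ifnar1-SA, and 92 faced 216 in WT. The division lists were still higher in members, with medians of 3.56 in Ifnar1-SA and 4.12 in WT for mitosis, 3.42 and 2.72 for histones, and 1.31 and 1.40 for S phase. Among these, the S phase median of Ifnar1-SA was lower than with all cells, and its histone median higher. The type I interferon median was -0.12 in Ifnar1-SA, with 8 of 48 genes past 1.5-fold lower and 1 past it higher. In WT it was 0.31, with 2 lower and 6 higher. All-gene medians were 0.09 and 0.26. Of all 5022 genes, 531 in Ifnar1-SA and 184 in WT were past 1.5-fold lower, and 954 and 1261 past it higher. The lower level of the type I interferon list in members was thus smaller in Ifnar1-SA and not seen in WT at matched depth. T cell identity stood at 0.03 and -0.05, growth at 0.04 and 0.23, respiration at 0.19 and 0.18, and glycolysis at 0.02 and 0.36. These too were closer to the all-gene medians. Ccl5 (-0.75 in Ifnar1-SA and -1.16 in WT), Hcst (-0.68 and -0.76), Ypel3 (-0.58 and -0.60), Slfn5 (-4.10 and -2.04), H2-Aa (-2.28 and -1.44) and H2-Eb1 (-1.92 and -1.93) were still lower in members of both libraries. The interval of Ypel3 in Ifnar1-SA included 0 (-1.40 to 0.17). Slfn5 rested on very few UMIs in members, at 2.69 CPM in Ifnar1-SA and 3.82 CPM in WT. Its intervals were -9.43 to -1.56 and -4.40 to -0.34. Ifit1 stood at -1.06 and 0.19, Ifit3 at 0.10 and -0.21 and Ifi208 at -0.40 and 0.36, and Gzma, granzyme A, at -1.95 and -0.19. The cytotoxic list had medians of -0.35 in Ifnar1-SA and -0.41 in WT with all cells, and -0.75 and -0.34 at matched depth, where 12 and 6 of 23 genes were past 1.5-fold lower and 2 and 3 past it higher.

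**Figure D3:**
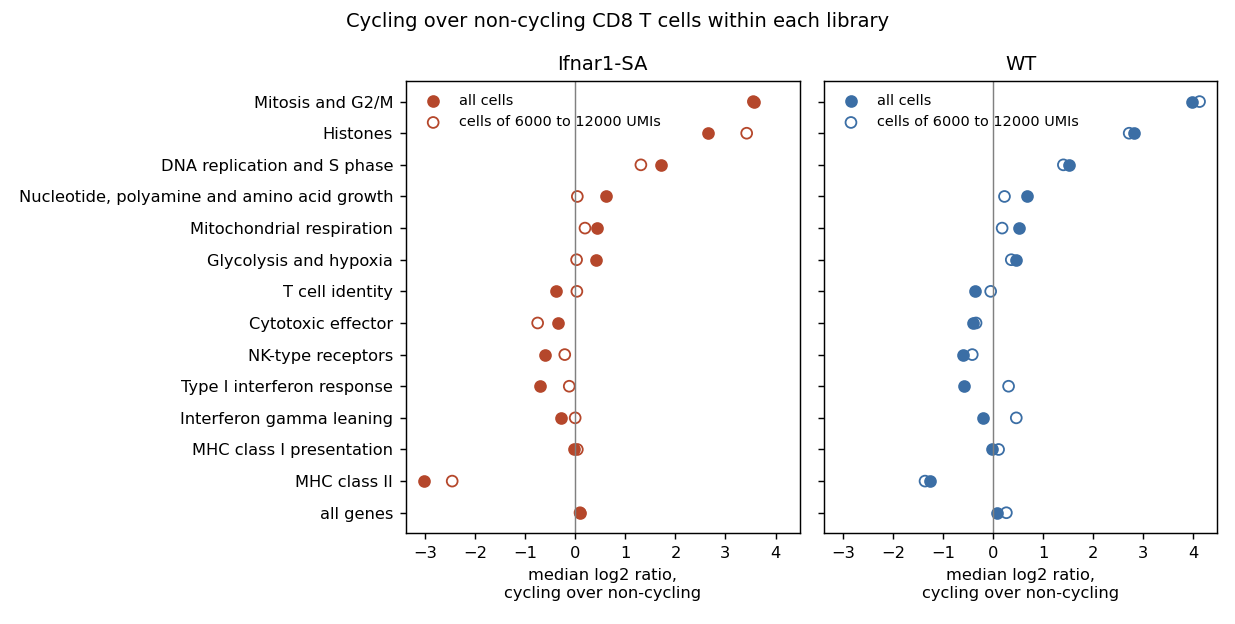
Medians of the gene lists in cycling over non-cycling CD8 T cells (x axis, log2 ratio of CPM), 1 panel per library, with all cells (filled) and with cells of 6000 to 12000 UMIs (open). The mitosis, S phase and histone lists lie far above 0 in every case, while the type I interferon list lies at -0.71 in Ifnar1-SA and -0.58 in WT with all cells and at -0.12 and 0.31 at matched depth.

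Between the libraries, 18 genes met the size rule for naming in members, 8 higher and 10 lower in Ifnar1-SA. The rule asked for at least 50 CPM in either library, 30 UMIs over both, 10 cells with a UMI in the higher library, under 50% of the UMIs there in the 5 highest cells, and an interval wholly outside 1.5-fold. It considered 2635 genes.

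Lgals3 led the higher genes. It encodes galectin-3, a sugar-binding lectin that is abundant in macrophages (chr14:47367751-47386160, mm10, plus strand). It stood at 688 CPM in Ifnar1-SA members and 206 CPM in WT members, a log2 ratio of 1.74 (1.60 to 1.87). Free RNA, estimated as above from the capped macrophage rule genes and empty droplets, came to 6.91 and 6.44 CPM of these levels. Lgals3 was as high in Xist-only (695 CPM) as in Y-linked-only Ifnar1-SA members (627 CPM), and the ratio stayed between 1.57 and 2.02 under 20 alternative settings. Nrgn, a calmodulin-binding protein first known from neurons (chr9:37544492-37552904, minus strand), stood at 877 and 435 CPM (1.01, 0.90 to 1.12) and between 0.89 and 1.39 under the alternatives. Non-cycling CD8 T cells had the same direction, at 1.05 for Lgals3 and 1.26 for Nrgn.

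The other higher genes were Ms4a4c, Serpine2, Ly6c2, Il18rap, Gadd45b and Ktn1. Il18rap, a chain of the interleukin-18 receptor, stood at 168 CPM in Ifnar1-SA and 90.6 CPM in WT (0.89, 0.65 to 1.14), and its partner Il18r1, which did not meet the rule, at 139 and 101 CPM (0.46, 0.21 to 0.71). Gadd45b, a stress-response gene, stood at 203 and 112 CPM (0.86), and Serpine2, a protease inhibitor, at 160.4 and 76.4 CPM (1.07). Ly6c2, a surface protein of memory and interferon-exposed T cells, stood at 593 and 329 CPM (0.85). Ms4a4c stood at 93.3 and 40.8 CPM (1.19), with 110.2 CPM in Xist-only and 21.7 CPM in Y-linked-only Ifnar1-SA members, so its direction in the second group was the opposite. Ly6c2 and Ms4a4c have near-identical relatives, and their counts are uncertain. Ktn1, an anchor of kinesin, stood at 60.8 and 28.4 CPM (1.10), but at -0.059 in cells of 6000 to 12000 UMIs and at -0.14 in non-cycling cells.

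Among the lower genes were several of T cell differentiation. Tox, a nuclear factor of chronically stimulated CD8 T cells (chr4:6686353-6991557), stood at 43.8 CPM in Ifnar1-SA members and 125 CPM in WT members, a log2 ratio of -1.51 (-1.92 to -1.13). At 2000 UMIs per cell 10.4% of Ifnar1-SA members and 20.2% of WT members had a Tox UMI, against 1 of 1563 and 0 of 1236 cells in the macrophage gate, where 0 of 1236 allows a share of cells with a UMI of up to 0.243% (3 counts of the total), and without thinning it was 33.6% and 62.5% of members. Xist-only Ifnar1-SA members had 34.0 CPM of Tox and Y-linked-only members 52.7 CPM, both under the 126 CPM of Xist-only WT members. Ikzf2, which encodes the transcription factor Helios (chr1:69531214-69687245), stood at 127 and 269 CPM (-1.08, -1.32 to -0.85). Bcl2 (chr1:106538178-106714274) stood at 74.9 and 146 CPM (-0.96, -1.28 to -0.66). Nr4a3, an immediate target of T cell receptor signalling (chr4:48045153-48086447), stood at 92.6 and 175 CPM (-0.92, -1.20 to -0.65). Tox, Ikzf2 and Bcl2 were lower in Ifnar1-SA non-cycling cells too, at -0.79, -0.78 and -1.01, while Nr4a3 stood at 0.14 there.

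Itga4, the alpha-4 integrin that binds VCAM-1 (chr2:79255426-79333123), stood at 46.6 CPM in Ifnar1-SA members and 130 CPM in WT members, a log2 ratio of -1.48 (-1.87 to -1.10). Its levels were 37.98 CPM in Xist-only and 43.4 CPM in Y-linked-only Ifnar1-SA members, and its ratio was -1.85 in non-cycling cells. Gxylt1, a xylosyltransferase that acts on Notch, stood at 26.9 and 75.6 CPM (-1.49). Ier5l, an immediate early gene, stood at 157 and 315 CPM (-1.004), and Bend4 at 57.3 and 111 CPM (-0.95). The histone genes Hist1h2ae, at 106 and 256 CPM (-1.27), and Hist1h2ap, at 44.5 and 99.8 CPM (-1.16), complete the 10.

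**Figure D4:**
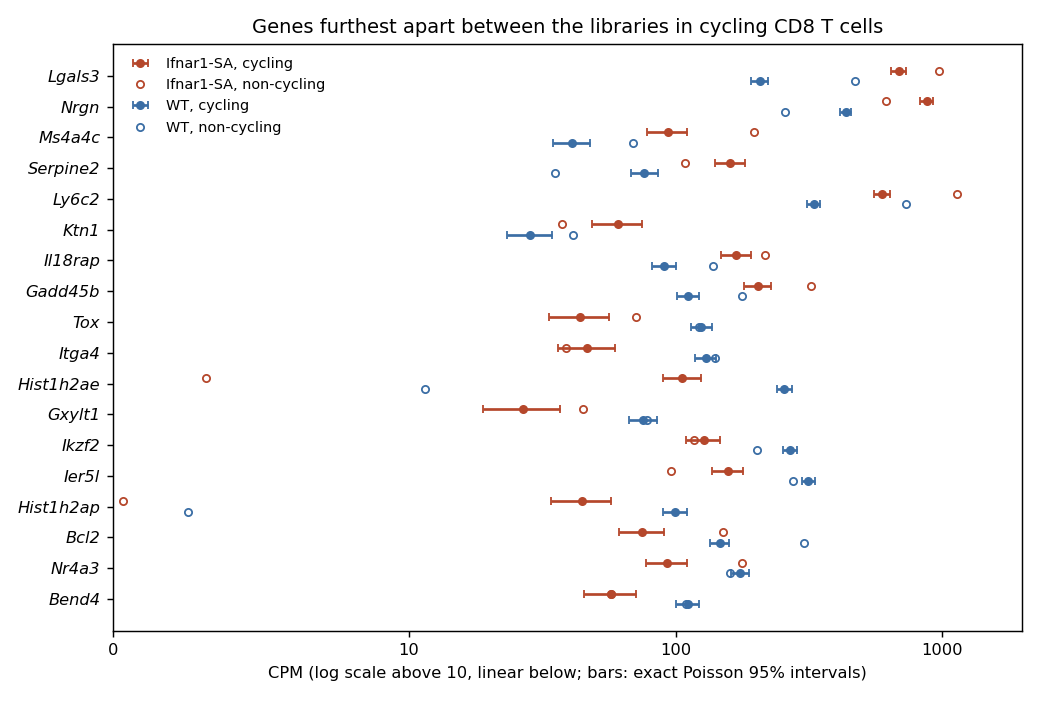
Levels in CPM (x axis, logarithmic above 10 and linear below) of the 18 named genes in each library; filled points are cycling CD8 T cells with exact Poisson 95% intervals and open points non-cycling cells. Lgals3 (688 and 206 CPM in cycling cells of Ifnar1-SA and WT) and Nrgn are higher and Tox (43.8 and 125 CPM), Itga4 and Ikzf2 lower in Ifnar1-SA in both kinds of cells.

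Genes of cytotoxic function stood higher in the Ifnar1-SA members, and a few cells carried much of that difference. Of 27 genes on the list 23 were measured, 18 were higher in Ifnar1-SA, 12 were past 1.5-fold higher and Gzmk was past 1.5-fold lower. Of all measured genes 54.6% were higher, 4.28% past 1.5-fold higher and 2.41% past it lower. The list median was 0.61, beside 0.03 over all genes. Gzmb, granzyme B, which triggers death of target cells, stood at 1793 CPM in Ifnar1-SA and 1177 CPM in WT (0.61, 0.54 to 0.68), and at 1279.9 and 922 CPM without the 5 highest cells of each library. At 2000 UMIs per cell, 66.1% of Ifnar1-SA members and 53.7% of WT members had a Gzmb UMI, against 1.86% and 0.97% in the macrophage gate. Ifng, the cytokine interferon gamma, stood at 507 and 238 CPM, but 67.5% of its Ifnar1-SA UMIs and 33.0% of its WT UMIs were in 5 cells, and it stood at 177 and 165 CPM without them. Prf1, perforin, stood at 170.3 and 156 CPM (0.13, -0.09 to 0.35), and Nkg7, a granule protein, at 1781 and 1755 CPM (0.02, -0.05 to 0.09).

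Some chemokines and other granzymes were also concentrated in few cells. Ccl3 stood at 447 CPM in Ifnar1-SA and 275.5 CPM in WT, and at 150.03 and 114 CPM without the 5 highest cells. Ccl4 stood at 1318 and 859 CPM, and at 762 and 411 CPM without them. Xcl1, which draws cross-presenting dendritic cells, stood at 994 and 545 CPM (0.87, 0.77 to 0.97), with 55.2% and 46.1% of the UMIs in 5 cells, and at 472 and 304 CPM without them. Gzmf stood at 1038 and 265 CPM, with 71.6% and 59.1% of the UMIs in 5 cells, and granzymes c to g are near-identical, so that their split is uncertain. Csf2 stood at 46.6 and 2.1 CPM, with 98.5% of the Ifnar1-SA UMIs in 5 cells. Gzmk, a granzyme of less differentiated effector cells, stood at 33.2 and 54.5 CPM (-0.71, -1.20 to -0.25).

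The sex-linked split went along with these genes. Gzmb stood at 1293 CPM in Xist-only and 3016 CPM in Y-linked-only Ifnar1-SA members, beside 1174 CPM in Xist-only WT members, and Ifng at 239.9, 1430.3 and 238.5 CPM. Ccl3 stood at 226, 1201 and 278 CPM, and Ccl4 at 831, 2702 and 866 CPM. A single Y-linked-only cell held 372 of the 461 Ifng UMIs of that group, and without the highest cell of each group Ifng stood at 209 CPM in Xist-only and 306 CPM in Y-linked-only Ifnar1-SA members, and 209 CPM in all WT members. Ccl3 then stood at 178, 340.0 and 192 CPM, and Gzmb, whose UMIs were spread over more cells, at 1167, 2416 and 1105 CPM. The list median was 0.10 for Xist-only Ifnar1-SA over WT members and 0.69 for Y-linked-only members over WT. It was 0.43 without the cells above 50000 UMIs. In non-cycling cells it was 0.33, where 2.72% of 4812 genes were past 1.5-fold higher and 2.1% past it lower. With 1 library per genotype, genotype and animals cannot be told apart for these genes.

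Genes of less differentiated T cells also stood higher, from few measured genes. Of 18 genes on the naive, stem and memory list 9 were measured and 7 were higher, where 54.6% of all measured genes were. The median was 0.58, and 0.43 in non-cycling cells. For Xist-only Ifnar1-SA members it was 0.50 and for Y-linked-only members 0.17. Ccr7, the receptor for lymph node homing, stood at 130.05 CPM in Ifnar1-SA and 60.6 CPM in WT (1.10, 0.81 to 1.39), and 12.2% and 6.99% of thinned members had a UMI, against 0.58% and 0.16% in the macrophage gate. Il7r, the interleukin-7 receptor, stood at 119 and 76.1 CPM (0.65, 0.37 to 0.93), and Klf2, a factor of T cell circulation, at 47.4 and 27.7 CPM (0.78, 0.31 to 1.23). Tcf7, which marks stem-like CD8 T cells, was under the minimum. After thinning, 4 of 115 Ifnar1-SA members (3.48%, 0.96 to 8.67) and 3 of 272 WT members (1.10%, 0.23 to 3.19) had a UMI. These intervals overlap, and in the macrophage gate 2 of 1563 and 0 of 1236 cells had one. Slamf6 had the opposite order, in 0 of 115 and 4 of 272 thinned members, and in 8.62% and 11.4% of members without thinning. Bcl2 was the gene of this list past 1.5-fold lower.

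Tox was lower, while the inhibitory receptors of its list differed by less and in both directions. The exhaustion list had 22 measured genes of 28, a median of 0.05, Cd200 past 1.5-fold higher, and Tox, Ikzf2, Nr4a3 and Entpd1 past 1.5-fold lower. The median was -0.12 for Xist-only Ifnar1-SA members, with 5 of 22 genes higher, and 0.32 for Y-linked-only members, with 13 of 22 higher. Pdcd1, which encodes PD-1, stood at 380 CPM in Ifnar1-SA and 425 CPM in WT (-0.16, -0.31 to -0.02), and Ctla4 at 314 and 290 CPM (0.12, -0.05 to 0.28). Lag3 stood at 199 and 169 CPM (0.23, 0.02 to 0.43) and Havcr2, which encodes TIM-3, at 134 and 109 CPM (0.29, 0.03 to 0.54), but Havcr2 stood at -0.12 among Xist-only cells of both libraries and at -0.0054 without its 5 highest cells. Entpd1, the ectoenzyme CD39, stood at 27.6 and 46.6 CPM (-0.76, -1.30 to -0.25). Among 15 measured trafficking genes 3 were higher, where 54.6% of all measured genes were, with a median of -0.17. Itga4 and Cxcr4 were among those past 1.5-fold lower, with Cxcr4, a chemokine receptor, at 19.8 and 34.2 CPM (-0.79, -1.44 to -0.19). Ccr2, a receptor of inflammatory homing, was past 1.5-fold higher, at 38.9 and 15.01 CPM (1.37, 0.81 to 1.93). Of 16 measured costimulation and cytokine receptor genes Il18rap and Cd69 were past 1.5-fold higher and none past it lower, with a median of 0.04, which was -0.21 for Xist-only and 0.60 for Y-linked-only Ifnar1-SA members. Of 8 measured NK-type receptors Klrk1, Slamf7 and Crtam were past 1.5-fold higher and Klre1 lower, with a median of 0.31.

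Type I interferon response genes had a median slightly above that of all genes in Ifnar1-SA members. Of 63 genes on the list 39 were measured, 27 were higher, 5 were past 1.5-fold higher, none was past it lower, and the median was 0.15. Of all measured genes 54.6% were higher, 4.28% past 1.5-fold higher and 2.41% past it lower. For Xist-only Ifnar1-SA members over all WT members the list median was 0.07, with 24 of 39 genes higher. For Y-linked-only members it was 0.02, with 20 of 39 higher. Non-cycling cells had 43 of 51 list genes higher in Ifnar1-SA, beside 55.2% of 4812 genes measured there, and a median of 0.26. Among the receptor genes, Ifnar1 stood at 78.5 CPM in Ifnar1-SA and 61.9 CPM in WT (0.34, 0.00 to 0.67, from 111 and 235 UMIs) and Ifnar2 at 34.6 and 32.7 CPM (0.08, -0.42 to 0.57). Counts of 3' ends do not show whether an allele differs in sequence, so this level is no check of the genotype.

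The members of the list differed among themselves. Ifi27l2a stood at 3106 CPM in Ifnar1-SA and 2140 CPM in WT (0.54, 0.48 to 0.59), Ly6a, the surface protein Sca-1, at 612 and 416 CPM (0.56, 0.43 to 0.68), and Ifitm3, which blocks viral entry, at 241 and 175 CPM (0.46, 0.27 to 0.66). Besides Ms4a4c and Ly6c2, the genes past 1.5-fold higher were Slfn1, Rtp4 and Ddx58, which encodes the RNA sensor RIG-I, at 38.9 and 25.5 CPM (0.61, 0.10 to 1.10). Isg15, a ubiquitin-like modifier, stood at 144 and 177 CPM (-0.30, -0.53 to -0.07), and at 0.13 without the deepest cells. The list median was -0.13 in cells of 6000 to 12000 UMIs, -0.042 with 3 cycle ranges weighted equally and 0.30 at 2000 UMIs per cell. Of 18 measured genes that lean to interferon gamma none was past 1.5-fold, with a median of -0.02, and the MHC class I list had a median of 0.01 over 19 genes.

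Isg15 (chr4:156200769-156201068, minus strand) and Ifit3 (chr19:34583279-34583578, plus strand) show the letters of the interferon-stimulated response element, over the same window and build as above. Capitals mark GAAANNGAAA, searched on both strands. In Isg15 they cover 3 overlapping matches, and in Ifit3 2 matches on the other strand.
Isg15: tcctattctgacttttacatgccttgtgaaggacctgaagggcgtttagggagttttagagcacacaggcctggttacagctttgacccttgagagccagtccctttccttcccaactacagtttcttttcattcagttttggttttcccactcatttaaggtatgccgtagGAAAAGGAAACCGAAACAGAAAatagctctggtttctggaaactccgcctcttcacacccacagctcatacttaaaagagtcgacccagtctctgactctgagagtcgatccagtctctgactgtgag
Ifit3: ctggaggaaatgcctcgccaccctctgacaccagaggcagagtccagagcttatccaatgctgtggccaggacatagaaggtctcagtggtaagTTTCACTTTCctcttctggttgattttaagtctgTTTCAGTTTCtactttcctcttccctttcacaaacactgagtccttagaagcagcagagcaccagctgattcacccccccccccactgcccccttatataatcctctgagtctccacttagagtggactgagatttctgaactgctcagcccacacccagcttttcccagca
The motif was found in 30 of 62 promoters of 51 matched genes of the type I interferon list (48.4%), in 15.4% of cytotoxic promoters, in none of 34 S phase promoters and in 3.44% of all promoters.

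**Figure D5:**
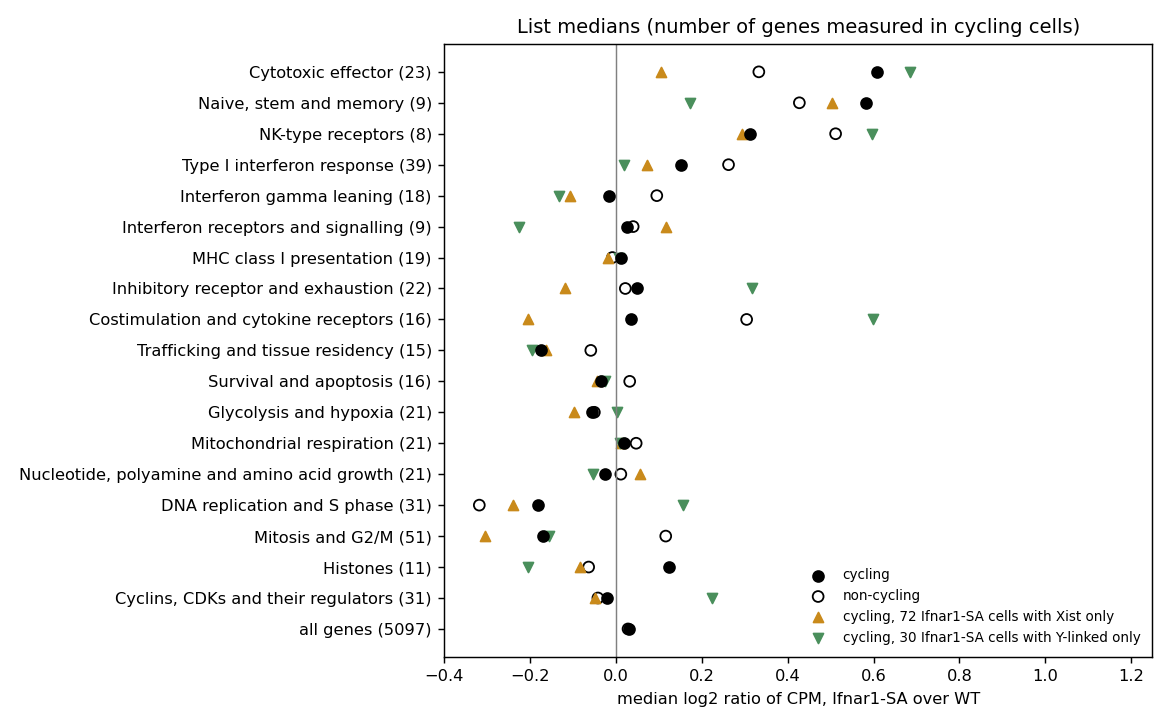
Median log2 ratio of CPM, Ifnar1-SA over WT, for 18 gene lists and all genes in cycling CD8 T cells (filled circles), beside the median in non-cycling cells over the genes measured there (open circles) and the medians for Xist-only and Y-linked-only Ifnar1-SA members (triangles). Among the filled points the cytotoxic (0.61) and naive, stem and memory (0.58) lists lie farthest above the all-gene median of 0.03, and the S phase (-0.18), mitosis (-0.17) and trafficking (-0.17) lists farthest below.

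The remaining lists were close to the all-gene median. Glycolysis stood at -0.06, respiration at 0.02, growth at -0.02 and survival at -0.03 over 21, 21, 21 and 16 measured genes. In the split of Ifnar1-SA members by sex-linked transcripts these 4 medians lay between -0.098 and 0.056. On the growth list Psat1, of serine synthesis, at 81.3 CPM in Ifnar1-SA and 50.6 CPM in WT (0.68, 0.34 to 1.03), and Slc7a5, a leucine transporter, at 39.6 and 22.7 CPM (0.81, 0.29 to 1.31), were past 1.5-fold higher. The list of genes known to respond to tissue dissociation had a median of 0.12 over 16 genes, with Fos, Fosb, Jun and Ier3 past 1.5-fold higher and Fos at 76.3 and 32.4 CPM (1.24, 0.85 to 1.62). Fos met the naming rule's limits on level and interval but not those on the number of cells and the share in the highest cells. The part of the dissociation genes in the other differences was not tested.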

How the data were processed

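The deposited files hold raw counts of UMIs for every barcode, unfiltered, from Cell Ranger 4, as run by the authors and recorded in the file headers. The submitters' processing notes name mm10, while annotation and alignment parameters are not stated in the sources used here. Gene positions are from GENCODE vM21 and promoter sequences from RefSeq, both of GRCm38. Cells were gated as given above, and the sum of their UMIs in a library was scaled to CPM. Ratios have exact conditional binomial intervals and shares exact Clopper-Pearson intervals, all at 95% and for counting error only. Python 3.11.15 was used with numpy 2.4.6, scipy 1.17.1, pandas 2.3.3, matplotlib 3.10.9 and scanpy 1.11.5. The steps were tested on simulated data. Doublets were kept, and Scrublet's top scores (0.8% per 1000 cells, 200 Ifnar1-SA and 132 WT barcodes) were removed in an alternative, since its automatic limit marked 0.04% and 0% of cells. Genes were named by the size rule in the text, ranked by the bound nearest 0, at most 12 each way, without mitochondrial, ribosomal, antigen receptor, sex-linked, predicted and rule genes. Cycling against non-cycling used the smaller bound of both libraries and 10 genes each way. List members named besides these were chosen for level or role. The members, gene lists, named-gene rule and alternatives were chosen with earlier results of these data known.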

Additional observations from a re-analysis of the deposited data

Results flagged for a closer look

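In 45 of 4468 genes measured in both cycling and non-cycling CD8 T cells, the counting intervals of the Ifnar1-SA over WT ratio lay on opposite sides of 0 in these cells. The 12 of these 45 that are on the gene lists are given below. The share of list genes among the 4468 was not counted, so the 12 are not read as an excess. The difference between cycling and non-cycling cells was not tested, since each pair comes from the same 2 libraries. Higher in cycling and lower in non-cycling Ifnar1-SA cells were Ccl5 (log2 ratios 0.16 and -0.22), H2-D1 (0.10 and -0.09), Rgs1 (0.35 and -0.20) and Tapbp (0.28 and -0.21). Lower in cycling and higher in non-cycling Ifnar1-SA cells were Isg15 (-0.30 and 0.39), Ifi47 (-0.52 and 0.43), Psmb8 (-0.13 and 0.09), Fcer1g (-0.58 and 0.56), Trbc1 (-0.26 and 0.41), Odc1 (-0.41 and 0.21), Cycs (-0.19 and 0.26) and Ndufs6 (-0.23 and 0.22). Isg15 and Ifi47 are interferon-inducible, Psmb8, Tapbp and H2-D1 belong to antigen presentation, and Odc1 makes polyamines. The direction in cycling cells depended on which cells were taken, in settings chosen after seeing the data. It held for 11 of the 12 genes without the cells above 50000 UMIs, where Isg15 stood at 0.13, for 12 with Xist-only and 9 with Y-linked-only Ifnar1-SA members, and for 6 in cells of 6000 to 12000 UMIs. Ccl5 stood at -0.18 with Y-linked-only members, -0.19 at 6000 to 12000 UMIs, -0.25 with 3 cycle ranges weighted equally and -0.0067 without its 5 highest cells. The 4 genes whose direction held in all 4 of the sets of cells in which the 12 were counted were Fcer1g, Ifi47, Psmb8 and Rgs1.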

How the results depend on the processing

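No paired analysis was possible because each genotype has 1 library, and for the same reason no replicate could be left out. Of 20 settings, 5 were chosen after seeing the data. These were 2 cycle ranges, Y-linked-only cells, 6000 to 12000 UMIs, no cells above 50000 UMIs and a second thinning draw. Over all 20, the 18 other list medians gave 317 values within the spread of the main value, 40 moved and 3 reversed. The 54 genes gave 856, 202 and 22. Except for the cytotoxic and type I interferon lists, a change of sign counted as reversed only where the main interval excluded 0. Other changes of sign are among the values within the spread or moved. The histone median, 0.12 in the main analysis, thus reached -0.20 with none reversed, and Ube2c, at -0.11, reached 0.46. The cycling share of CD8 T cells was lower in Ifnar1-SA under every setting that recomputed it; the difference was -10.4 percentage points in the main analysis and -5.03 with Y-linked-only cells. The difference in the share of kept cells was -4.38 points, -1.12 with Y-linked-only cells and -5.44 in the second thinning draw. The main counts past 1.5-fold were 218 higher and 123 lower. They were 516 and 475 with 3 cycle ranges weighted equally, 708 and 398 with Y-linked-only cells, 451 and 822 at 6000 to 12000 UMIs, 51 and 37 at a minimum of 50 CPM, 2441 and 992 with no minimum, and 53 and 329 without the 5 highest cells per gene. Lower genes were 243 with Xist-only cells and 259 with each cell weighted equally, and higher genes 144 without cells above 50000 UMIs. The cytotoxic median was 0.75 with Y-linked-only, 0.089 with Xist-only cells and 0.13 in the second draw. The type I interferon median was -0.042 with 3 ranges, -0.13 at 6000 to 12000 UMIs and 0.30 with cells chosen after thinning. The thinning draws set which cells counted as cycling (at least 1 UMI of the 4 cycle genes), while levels used all UMIs of those cells. Other list medians above 0 numbered 10 of 18, and 6 in the second draw, 6 with Xist-only cells and 3 without the 5 highest cells. Reversed values were, with 3 ranges, S phase 0.041, Ccl5 -0.25 and Pdcd1 0.078. With Y-linked-only cells they were S phase 0.16, Ms4a4c -0.91 and Ccl5 -0.18, and at 6000 to 12000 UMIs Ktn1 -0.059, Gzmc -0.91, Ccl5 -0.19, Pdcd1 0.039 and Cdk1 0.033. Isg15 was 0.28 and 0.26 with the cells chosen in the thinning draws and 0.13 without cells above 50000 UMIs. The second draw gave Gzmc -0.020, Ccl3 -0.67 and Ccl4 -0.19, and Xist-only cells gave Ccl3 -0.30, Ccl4 -0.061 and Havcr2 -0.12. The mitosis median was 0.049 with each cell weighted equally, Ccl3 was -0.028 without top Scrublet scores, and without the 5 highest cells Gzmc was -0.40, Ccl5 -0.0067 and Havcr2 -0.0054. The cause was not tested. The S-leaning range holds 5 and 7 cells, so settings that weight it rest on few cells. Differences within the counting intervals are not detectable at this depth.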
